A study of Caenorhabditis elegans with 2 samples.

Results

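Nuclear pore and nuclear transport genes were examined as targets in a ChIP-seq experiment on MEP-1, a zinc-finger protein that acts in worms with the Mi-2 chromatin remodeller LET-418 and the deacetylase HDA-1. The genes are the 40 of 19973 protein-coding genes on the nuclear chromosomes of Caenorhabditis elegans whose Ensembl symbol is npp-, imb-, ima-, xpo- or ran- with a number. They were chosen by symbol and by promoter summits and signal values in the IDR set and the pooled list defined below, with earlier results of these data known. Those values are therefore given as a description, with no test.

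The experiment has 1 group with 2 biological replicates, each of whole embryos of mixed stages and both sexes, of strain OP70. This strain carries the unc-119(ed3) allele on chromosome III and the transgene wgIs70, from which MEP-1 with an eGFP tag is made; no source used here gives the promoter that drives it or its level against the untagged protein. Whole embryos mix all tissues and ages, so a region can come from some cells only. No second condition exists, and no control sample is among the regions analysed here. Library fragments were 150 to 350 bp, and read depth is unknown.

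Each list holds regions with a summit and the authors' signal value, a strength in the units of the peak caller that is comparable within 1 list only. The candidate lists include background and number 25216 regions in replicate 1 and 30000 each in replicate 2 and in the pooled reads. The IDR set (irreproducible discovery rate, which retains regions that replicates rank similarly) holds 2404 peaks with signals from 34.21 to 357.3 and a median of 52.36. It consists of the 2404 strongest pooled regions, so a pooled signal alone decided whether a member entered it. A gene had a promoter summit when a summit fell between 1000 bp upstream and 200 bp downstream of its annotated 5′ end. Coordinates are on ce11, and offsets are negative upstream.

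The nuclear pore is the gate between nucleus and cytoplasm. Nucleoporins build its inner and outer rings, its membrane anchors, its channel and the filaments on either face. Importins and exportins carry cargo through the channel, and the GTPase Ran, charged in the nucleus and discharged in the cytoplasm, sets the direction. Worm embryos take these complexes apart and rebuild them at each cell division. Roles below are those known for the worm proteins or their vertebrate and yeast relatives.

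The sequence at the summit is shown for 6 members: npp-8 and ran-1 because they had the strongest peaks, npp-1, npp-3 and npp-9 because they carry the short motifs described at the end, and npp-10 because the replicates differed there. The whole narrow peak is given for npp-8 and ran-1 and 60 bp on each side of the summit for the others, on the strand of the gene, from the ce11 genome. Capitals mark matches, on either strand, to the 7 motifs searched.
npp-8 (chrIV:1595939-1596086, minus strand): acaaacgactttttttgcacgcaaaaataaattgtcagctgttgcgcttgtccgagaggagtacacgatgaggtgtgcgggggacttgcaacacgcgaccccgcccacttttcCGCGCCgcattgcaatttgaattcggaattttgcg
ran-1 (chrIII:10748142-10748283, minus strand): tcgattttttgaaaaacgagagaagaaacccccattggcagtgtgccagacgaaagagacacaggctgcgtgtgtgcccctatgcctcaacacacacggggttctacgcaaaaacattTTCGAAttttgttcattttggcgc
npp-1 (chrIV:9858231-9858351, plus strand): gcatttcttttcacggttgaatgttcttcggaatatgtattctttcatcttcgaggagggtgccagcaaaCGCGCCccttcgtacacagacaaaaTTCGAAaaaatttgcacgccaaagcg
npp-3 (chrII:11874795-11874915, minus strand): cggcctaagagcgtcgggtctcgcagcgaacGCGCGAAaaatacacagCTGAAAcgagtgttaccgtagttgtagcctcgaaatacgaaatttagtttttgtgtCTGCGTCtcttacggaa
npp-9 (chrIII:3404592-3404712, minus strand): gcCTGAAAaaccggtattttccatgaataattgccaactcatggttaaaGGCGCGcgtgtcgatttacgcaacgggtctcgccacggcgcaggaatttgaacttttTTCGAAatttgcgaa
npp-10 (chrIII:6019881-6020001, minus strand): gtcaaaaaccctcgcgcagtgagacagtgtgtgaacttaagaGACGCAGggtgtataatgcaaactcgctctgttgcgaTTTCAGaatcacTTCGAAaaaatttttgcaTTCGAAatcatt

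Of the 40 members, 26 (65.0%, exact 95% Clopper-Pearson interval 48.3% to 79.4%) had a promoter summit in the IDR set, where 11.4% of all protein-coding genes had one. This interval and those below cover counting over genes or sequence windows only. In the pooled candidate list 35 members (87.5%) had a promoter summit, against 39.2% of all genes. The 26 peaks were 26 different regions, and no member had more than 1. Their signals ran from 35.61 to 133.8 with a median of 63.12 (exact 95% interval 52.22 to 77.34), beside a median of 57.73 over the strongest promoter peaks of the 2275 genes that had one. Of the 26 peaks, 2 were among the 100 strongest of the set and 18 among the stronger 1202, and the median rank was 830.5. A promoter summit among the stronger 1202 was thus present for 18 of 40 members, where 6.60% of all genes had one.

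**Figure D1:**
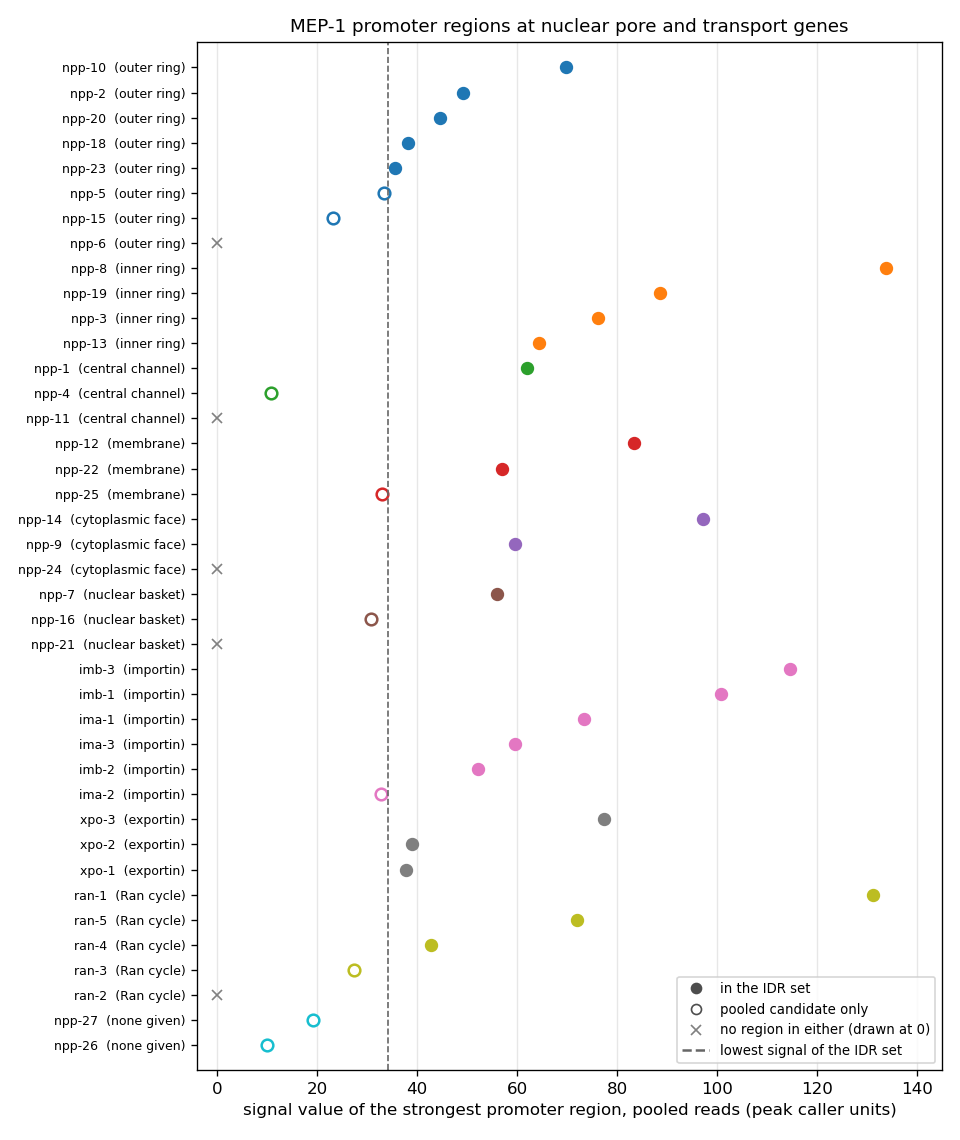
Signal of the strongest promoter region of each of the 40 genes in the pooled reads (x axis, peak caller units), grouped by role and coloured by role. Filled points are in the IDR set, open points are pooled candidates only, crosses mark genes with neither and are drawn at 0, and the dashed line is the lowest IDR signal, 34.21; npp-8 and ran-1 lie farthest right at 133.8 and 131.1.

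The inner ring, the scaffold that holds the channel proteins, was covered in full, with all 4 of its members in the IDR set and a median signal of 82.41. npp-8 (Nup155) had the strongest peak of all members, at 133.8 and rank 91 of 2404, with its summit at -204 bp; its matched region had signal 21.47 and rank 316 in replicate 1 and signal 109.4 and rank 88 in replicate 2. npp-19 (Nup35) had 88.68, and here replicate 1 ranked the region higher, at 92 with signal 31.11, than replicate 2, at 707 with signal 55.53. These were strong regions in both replicates. npp-3 (Nup205) had 76.14 at -67 bp, the summit closest to a member's 5′ end, in a promoter that top-2 shares at -293 bp. npp-13 (Nup93) had 64.32 at -273 bp, ranked 507 in replicate 1 and 1247 in replicate 2.

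The outer ring, whose Y-shaped complex also works at kinetochores, had 5 of 8 members in the IDR set, with a lower median signal of 44.52. Its strongest peak, 69.79, lay at -379 bp from npp-10, which encodes Nup98 and Nup96 in 1 precursor. That region ranked 3438 in replicate 1 with signal 6.789 and had no overlapping region in the list of replicate 2, so its place in the pooled list is not matched by a strong region in either replicate. The cause was not tested. npp-2 (Nup85) had 49.08, npp-20 (Sec13, which is also a coat protein of secretory vesicles) 44.52, npp-18 (Seh1) 38.18 and npp-23 (Nup43) 35.61. Of these 4, npp-2, npp-20 and npp-18 ranked higher in replicate 1, and npp-18 stood at rank 548 in replicate 1 and 3379 in replicate 2. npp-23 ranked 5211 in replicate 1 and 2322 in replicate 2 and was the weakest member peak of the IDR set.

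The other 3 outer-ring genes lay outside the set. npp-5 (Nup107) missed it narrowly, with a pooled signal of 33.35 and a region in replicate 2 of rank 2411, and it had no promoter region in replicate 1. npp-15 (Nup133) had a pooled signal of 23.10 and a region in replicate 1 alone, at rank 17327. The gene C29E4.13 is nearer to the pooled summit of npp-15, at -38 bp. npp-6 (Nup160) had no pooled region, but a region of rank 1894 and signal 9.143 in replicate 1. Each of the 3 thus had a promoter region in 1 replicate and not in the other.

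The membrane nucleoporins anchor the pore in the envelope. npp-12 (gp210) had 83.45 with its summit at -659 bp, at ranks 602 and 376 in replicates 1 and 2. The gene T23H2.3 starts closer to that summit, which lies at -180 bp from it. npp-22 (NDC1) had 57.06 with a summit inside the 3′ UTR of its neighbour spe-42, and ranked 7914 in replicate 1 against 861 in replicate 2. npp-25 (TMEM33) was outside the set with a pooled signal of 32.95, and mrps-10 is nearer to that summit, at -166 bp. The strongest promoter region of npp-25 ranked 2188 in replicate 2 and 10234 in replicate 1, with summits at -394 bp and -550 bp.

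In the central channel, lined by proteins with phenylalanine-glycine repeats, only npp-1 (Nup54) was in the IDR set, with 61.91 at -197 bp and ranks 2269 and 719. Its partner npp-4 (Nup58) had a pooled signal of 10.81, near the middle of all candidates, whose median was 10.33, and no region in replicate 1. npp-11 (Nup62) had no pooled region and a weak region in replicate 1, with signal 4.946 and rank 6551. The channel partners were therefore unlike each other in these lists.

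On the cytoplasmic face, npp-14 (Nup214) had 97.21 at -273 bp, at ranks 749 and 207, in a promoter shared with cel-1, the mRNA capping enzyme, whose 5′ end is nearer at -63 bp. npp-9 (Nup358, a Ran-binding filament protein) had 59.55 at -173 bp and ranked 645 in replicate 2. In replicate 1 the region that overlaps this npp-9 peak had its summit 123 bp away and was weak, with signal 2.904 and rank 16364, and a separate region of the promoter ranked 9328 with signal 4.099. npp-24 (Nup88) had no promoter region in any list.

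At the nuclear basket, npp-7 (Nup153) had 56.07 at -506 bp, at ranks 612 and 1472, in a promoter shared with the netrin receptor gene unc-40, which is nearer at -255 bp. npp-16 (Nup50) stayed under the set with 30.82, at ranks 2121 and 3085. npp-21 (TPR), the basket's filament protein, had only a weak region of replicate 1, with signal 5.036 and rank 6304. Of the nucleoporin symbols with no role assigned here, npp-27 had 19.16 and npp-26 had 9.875, both outside the set. The pooled summit of npp-27 lies in an intron of ntl-4, and that of npp-26 in the coding sequence of Y17G9B.2. A summit of the IDR set with signal 62.36 lay in an intron of npp-27, 607 bp downstream of its annotated 5′ end, and in the promoter of ntl-4. When the 5′ end of every annotated transcript was used, npp-27 gained a promoter summit in the IDR set. Its place outside the set thus depends on the 5′ end chosen.

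Of the transport receptors, 8 of 9 were in the IDR set beside 15 of 26 nucleoporin symbols, where 11.4% of all genes were. The difference was not tested. Among the receptors, another gene was nearer to the summit at ima-1, imb-1, xpo-1 and xpo-3. Among the nucleoporins, the same held at npp-7, npp-10, npp-12 and npp-14. Counted for the nearest gene alone, these genes had no IDR peak. Among the importins, imb-3, an importin beta family receptor, had 114.5 at -236 bp, and the replicates gave close ranks for it, 179 with signal 26.06 and 184 with signal 88.06. imb-1 (importin beta) had 100.7 at -121 bp, but its 2 replicates lay far apart: rank 136 with signal 96.49 in replicate 2 and rank 13619 with signal 3.288 in replicate 1. A transporter gene, mfsd-13.1, lies nearer to that summit, at -28 bp. imb-2 (transportin) had 52.22 at -280 bp, at ranks 1656 and 1018.

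The importin alphas, adaptors that bind the classical nuclear localisation signal, differed. ima-1 had 73.35 and ranks 2760 and 560, with dvc-1 nearer at -50 bp. ima-3 had 59.58 and ranks 3783 and 761. ima-2 was outside the set with 32.72, although it ranked 1010 in replicate 1, above both other genes there, and 3559 in replicate 2. The order of the 3 genes thus depended on the replicate.

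All 3 exportins were in the set, with a median of 38.95. xpo-3 (exportin-t, which exports tRNAs) had 77.34 at -250 bp, at ranks 379 and 894; its summit lies in an exon of the noncoding gene C49H3.14, and C49H3.3 is nearer at -68 bp. xpo-2 (CAS, which returns importin alpha to the cytoplasm) had 38.95 and ranks 7990 and 2048, in a promoter with nol-14 at -262 bp. xpo-1 (CRM1, the exportin for leucine-rich signals) had 37.73 at -888 bp, the most distant summit of any member, within the 5′ UTR of uvs-1. In replicate 1 the region matched to this xpo-1 peak had signal 2.245 and rank 22367, against signal 36.42 and rank 1607 in replicate 2. A different region of that promoter ranked 7248 in replicate 1.

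The Ran cycle, taken as the genes with a ran- symbol, had 3 of 5 members in the set. ran-1, the GTPase itself, had 131.1 at rank 95, with signal 27.97 and rank 137 in replicate 1 and signal 102.4 and rank 108 in replicate 2. It was high in the pooled list and in both replicates, although dkc-1, the pseudouridine synthase dyskerin, is nearer to the summit, at -233 bp against -468 bp for ran-1. ran-5 had 71.99 with ranks 128 and 1127, and its summit lies in the coding sequence of R12C12.6, 34 bp past that gene's 5′ end. ran-4 (NTF2, which returns Ran to the nucleus) had 42.79 at -455 bp. The region matched to this peak ranked 20346 in replicate 1 and 1748 in replicate 2. A second region of replicate 1 also overlaps the ran-4 peak, with its summit 134 bp away, and ranked 2349 with signal 8.219.

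The genes for the exchange factor and the activating protein of Ran lay outside the set. ran-3 (RCC1, the exchange factor that charges Ran in the nucleus) had a pooled signal of 27.36 and ranks 2407 and 3655. ran-2 (RanGAP, which discharges Ran in the cytoplasm) had no promoter region in any list; it begins 479 bp downstream of npp-15 on the same strand. Thus the GTPase gene was among the members with the strongest peaks, although that peak is nearer to dkc-1. The exchange factor gene had a weaker region, nearer to C26D10.3, and the activating protein gene had none.

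The threshold of the set fell close to several members. Just inside were npp-23 at 35.61, xpo-1 at 37.73 and npp-18 at 38.18, and just outside were npp-5 at 33.35, npp-25 at 32.95 and ima-2 at 32.72. The strongest pooled region outside the set had 34.18. For genes outside the set, a replicate rank is that of the strongest promoter region in that replicate's list, and for npp-25, ima-2, npp-16 and npp-27 its summit in replicate 1 lay more than 100 bp from the pooled summit, so it may be another region. The 9 members with a pooled candidate and no IDR peak had a median signal of 27.36, beside 11.56 over the 5547 genes in that position.

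The candidate list of replicate 1 had a promoter summit for 35 members (87.5%; all genes 34.6%) and that of replicate 2 for 33 (82.5%; all genes 39.7%). Both lists had one for 30 members (75.0%), against 23.6% of all genes, replicate 1 alone for 5, replicate 2 alone for 3 and neither for npp-24 and ran-2. Among the strongest 2404 regions of a replicate, 21 members (52.5%; all genes 9.43%) had a promoter summit in replicate 1 and 25 (62.5%; all genes 11.0%) in replicate 2. The replicates are separate lists, but their reads also make up the pooled list by which the members were chosen, so these shares are a description too.

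Of the members' 26 IDR peaks, 25 (96.2%) had a summit within 100 bp in replicate 1, beside 84.5% of all IDR peaks, and 25 (96.2%) had one in replicate 2, beside 98.5%. The match was among the strongest 2404 regions for 16 peaks (61.5%; all IDR peaks 58.2%) in replicate 1 and for 24 (92.3%; all IDR peaks 90.0%) in replicate 2. These last shares were close to those of the IDR set as a whole. Of 24 peaks matched in both, 15 (62.5%) ranked better in replicate 2, beside 59.9% of all IDR peaks matched in both. The other 9 ranked better in replicate 1. Among the strongest regions of both replicates were 15 of the member peaks. Spearman's rho between the replicate signals was 0.298 over these 24 peaks and 0.348 over 2002 IDR peaks, a description across regions of the same 2 libraries. Per the file descriptions, a control alignment is named for the lists of replicate 1 and the pooled reads and none for replicate 2, and its part in these differences was not tested.

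**Figure D2:**
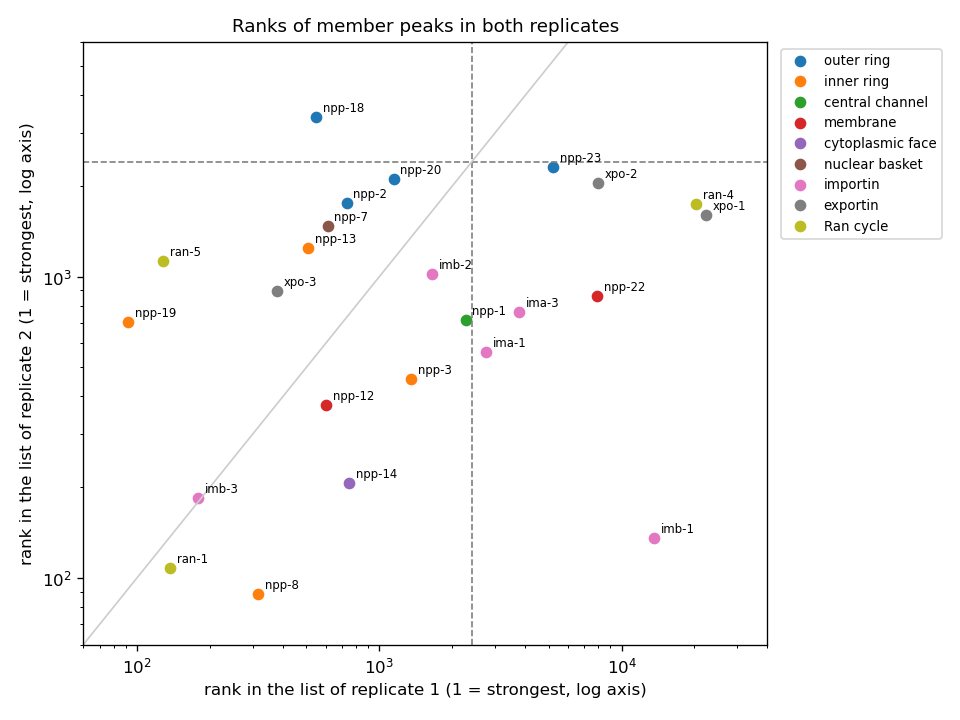
Rank of the 24 member peaks matched in both replicates, in replicate 1 (x) and in replicate 2 (y), on log axes where 1 is the strongest; colours give the role, dashed lines mark rank 2404 and the grey line equal ranks. ran-1, imb-3 and npp-8 lie at the strong corner. The matched regions of imb-1, ran-4 and xpo-1 lie far to the right, weak in replicate 1 and stronger in replicate 2. Not drawn is a second region of replicate 1 that overlaps the ran-4 peak, at rank 2349.

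All 26 summits lay upstream of the annotated 5′ end, as did 95.4% of the strongest promoter summits of all genes. The median offset was -261.5 bp for members and -225.0 bp for all genes. Of the 26, 19 (73.1%) lay within 300 bp upstream, beside 59.3% of all genes. Outside an annotated gene lay 22 summits, and the other 4 were those of npp-22, xpo-3, ran-5 and xpo-1 described above. Annotated 5′ ends were used as they stand, and many worm transcripts are trans-spliced.

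**Figure D3:**
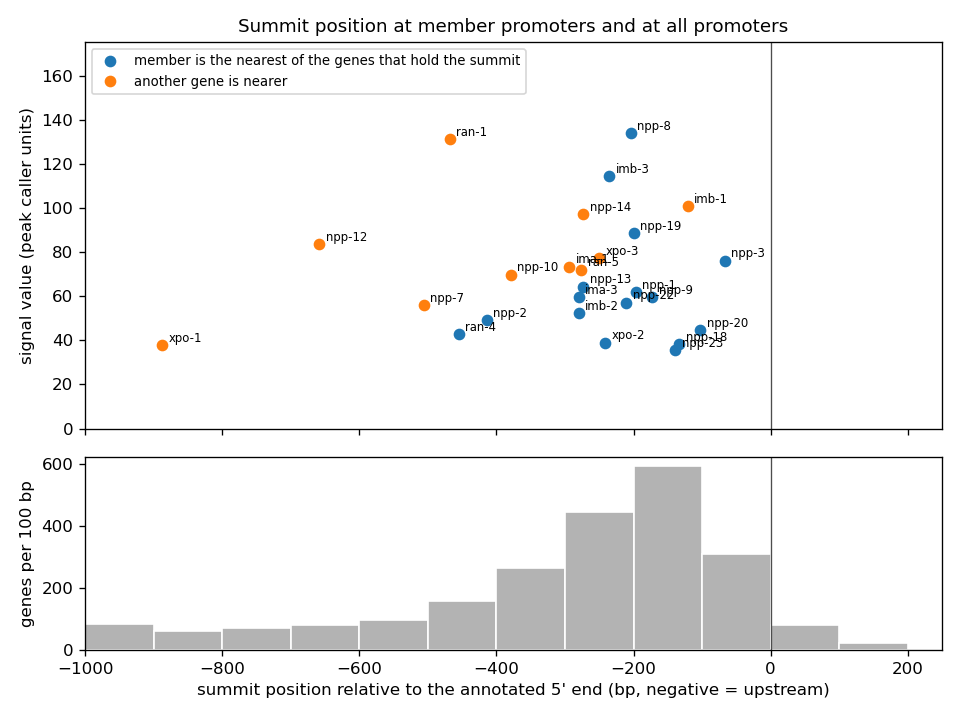
Signal of the 26 member peaks against summit position (upper panel; x axis bp from the annotated 5′ end, negative upstream; y axis peak caller units) and the number of all genes per 100 bp of offset (lower panel). Blue points mark members whose 5′ end is closest to the summit among the promoters that hold it, orange points those where another gene is nearer; most member summits lie within 300 bp upstream, and xpo-1 lies farthest out at -888 bp.

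Many summits lay between a member and a neighbour. Another protein-coding promoter shared 14 of the 26 peaks (53.8%), near the 56.9% over all genes, and in 10 of these the neighbour's 5′ end was the nearer. The member was nearest for 16 peaks (61.5%; all genes 70.6%). Counted for the nearest gene alone, 16 of 40 members had an IDR peak, against 8.10% of all genes, and 21 had a pooled candidate, against 34.0%. By the arrangement of genes, 13 of 20 members with an upstream neighbour on the opposite strand within 1 kb had an IDR peak, where 31.5% of all genes so placed did. Of the 10 members whose upstream neighbour was over 1 kb away, 8 had a peak (imb-3, npp-2, npp-8, npp-13, npp-18, npp-19, npp-20 and ran-4), against 7.13% of all such genes. Of the 9 with a same-strand neighbour within 1 kb, 5 did, against 7.32%. A summit between a pair of divergent genes cannot be assigned to either from these lists.

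Members lie on all autosomes and none on chromosome X. IDR peaks were at 9 of 13 members on chromosome I, 4 of 8 on II, 4 of 8 on III, 6 of 8 on IV and 3 of 3 on V. Over all genes the shares ran from 7.03% on V to 17.4% on III.

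Related genes with symbols other than those of the members were counted in the same way. Of 18 envelope and lamina genes, 5 (27.8%, exact interval 9.69% to 53.5%) had an IDR promoter peak, with a median signal of 54.73: lem-2 with 65.02, baf-1 (the DNA-bridging factor of the reforming envelope) with 55.31, emr-1 (emerin) with 54.73, unc-84 (a SUN protein) with 50.11 and lmn-1 (lamin) with 47.25. Of 16 mRNA export genes, 8 (50.0%, exact interval 24.7% to 75.3%) had one, with a median of 48.49. The strongest was hel-1, an RNA helicase of the export complex, with 97.97. It was followed by thoc-5 with 59.57, thoc-7 with 54.51, aly-3 with 49.06, ncbp-1 (a cap-binding subunit) with 47.93, nxt-1 with 45.80, thoc-3 with 37.97 and aly-2 with 35.27. Another gene was nearer to the summit at thoc-7 (rpl-29), ncbp-1 (rbx-2), thoc-3 (spd-2) and aly-2 (rpb-12). The summits of thoc-3, at -977 bp, and of lmn-1, at -985 bp, lay near the edge of the promoter window. The principal export receptor nxf-1 had a pooled candidate of 20.41 and no IDR peak. The envelope and lamina list also holds mel-28 (ELYS), which can be counted as a pore gene too. It had a pooled candidate of 30.55 and no IDR peak. Both counts fell under some settings, as did the share of all genes, which was 11.4% in the main setting. The stronger 1202 IDR peaks gave 3 genes in each list (6.60% of all genes). Nearest genes alone left 4 mRNA export genes (8.10% of all genes), and the strongest regions of replicate 1 gave 5 (9.43% of all genes). Whether either list differs from the pore and transport genes was not tested.

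**Figure D4:**
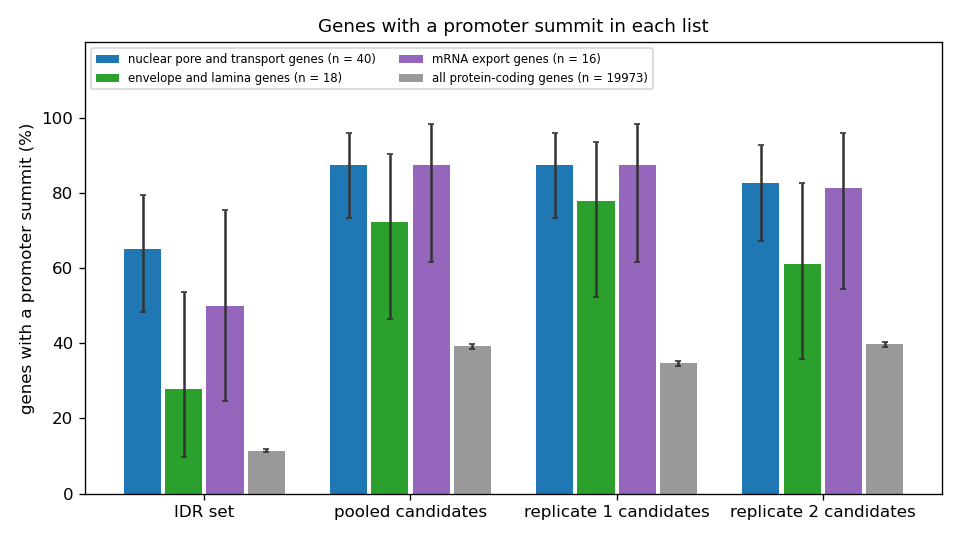
Percent of genes with a promoter summit in the IDR set and in the candidate lists of the pooled reads, replicate 1 and replicate 2, for the 40 pore and transport genes, 18 envelope and lamina genes, 16 mRNA export genes and all 19973 protein-coding genes; whiskers are exact 95% Clopper-Pearson intervals over genes. In the IDR set the bars stand at 65.0%, 27.8%, 50.0% and 11.4%.

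Short motifs were searched on both strands within 150 bp on each side of each summit. TTTCAG, a sequence of worm splice acceptors, was in 14 of 26 member windows (53.8%), and a match does not show trans-splicing there. It was in 32.0% of all IDR windows, 38.7% of 1603 other IDR windows in promoters and 41.9% of pooled candidates that overlap no IDR peak. The shares of the next 4 motifs are given for members and then for these 3 sets in the same order. GCGCGAA, part of an E2F site, was in 4 member windows (15.4%, beside 6.24%, 6.74% and 2.75%), as in npp-3 above. CTGCGTC, part of a motif of broadly active worm promoters, was in 4 (15.4%, beside 20.1%, 15.2% and 5.73%), so members were close to the other promoter peaks. TATAAA was in 6 (23.1%), beside 25.2%, 449 of 1603 windows and 27.4%. GAGAGAG was in 2 (7.69%), beside 576 of all 2404 IDR windows, 17.4% and 10.1%. The median GC content of the windows was 36.9% for members, 37.5% for the other promoter peaks and 40.2% for all IDR peaks.

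A further pair of motifs was picked after motif shares in these windows had been seen, so the shares are a description of that choice. GGCGCG was in 11 member windows (42.3%), beside 16.2% of the other IDR windows in promoters and 5.89% of pooled candidates that overlap no IDR peak. It shares letters with GCGCGAA, so 1 stretch can match both. TTCGAA, which reads the same on both strands, was in 13 (50.0%), beside 21.6% and 18.4%. Both motifs were present at ran-1, imb-1, npp-3, npp-1, npp-9, npp-20, xpo-1 and npp-23, and neither at 10 members, among them imb-3, npp-12 and xpo-3. A match is a run of letters and was not tested as a binding site.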

How the data were processed

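Regions came from narrowPeak lists on ce11 made by the authors: 1 candidate list per replicate, 1 for the pooled reads and the optimal IDR set. Per the file headers and descriptions, each region carries the deposited signal value, the deposited −log10 q-value and a summit. All IDR peaks share the highest −log10 q of the authors' pooled list, 3.695, so regions were ranked by signal, within a list only. No source used here names the aligner, the peak caller or the cut-off of the IDR procedure, and the ce10 lists were not used here.

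Genes were those of Ensembl release 115 (WBcel235, which is ce11). Summits were assigned to promoters, matched between replicates within 100 bp and searched for motifs with Python 3.11.15, numpy 2.4.6 and scipy 1.17.1. The assignment to promoters was checked on simulated peaks, and the matching between replicates was not. Intervals for shares are exact Clopper-Pearson, and the exact interval for the median signal has member signals as its ends. With 1 group and members chosen on the readout, no test was made. Members, roles and lists were chosen with earlier results of these data known. Every member is named, as are genes of the envelope and export lists with an IDR promoter peak. The genes nxf-1 and mel-28 were named after their values were seen. Of 17 export genes listed, 16 matched the annotation. The symbol npp-17 is not in that annotation. Alternatives varied the threshold, window, gene assignment, overlap, 5′ ends, replicates and motif window; RefSeq symbols, distinct peaks and peaks matched in both replicates were added after seeing the data.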

Additional observations from a re-analysis of the deposited data

How the results depend on the processing

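Of 49 alternatives computed, 40 kept their count or value within the set limits (1.5 times for a count), 9 did not and 0 reversed. Counting each summit only for its nearest gene left 16 of 40 members in the IDR set (8.10% of all genes), all among the 26, and lost ran-1, imb-1, npp-14 and npp-10 with 6 others; it left 21 members in the pooled list and 4 mRNA export genes. The stronger 1202 IDR peaks gave 3 envelope and lamina genes and 3 mRNA export genes (6.60% of all genes). The promoter window from 500 bp upstream to 100 bp downstream gave 3 envelope and lamina genes (9.34% of all genes). With the 5′ end of every transcript, all 26 members were kept and npp-27 was gained, and the share of all genes rose slightly as well. The strongest regions of 1 replicate were also used in place of the IDR set. Members then numbered 21 to 25, envelope and lamina genes 4 to 5 and mRNA export genes 5 to 8 (9.43% to 11.0% of all genes). The median member signal was 15.30 to 50.60, in the units of those lists and not comparable with 63.12. Without replicate 1, 24 of the 26 members were kept and npp-25 was gained; without replicate 2, 17 were kept and ima-2, npp-16, npp-27 and npp-6 were gained. RefSeq symbols add xpo-7 (34.58; C35A5.8 in Ensembl), for 27 of 41. No paired analysis was possible because there is 1 group. Read depth is unknown, so a missing region does not show that MEP-1 is absent.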
